A study of Mus musculus with 14 samples.

Results

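The genes described here are 27 members of the cholesterol synthesis pathway and of its control by SREBP2, out of 28022 genes in the mouse count table. They were listed by name by a rule that uses no measured value, though with earlier results of these data known, and all 27 were found in the table. By role, 8 encode enzymes of the mevalonate arm, 3 carry farnesyl units to lanosterol, 9 turn lanosterol into cholesterol, 5 regulate SREBP and 2 carry or take up sterol. All 27 passed the filter on low counts in every comparison, and their counts per library ran from 0 to 20666.

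RNA was sequenced from 14 libraries of 7 conditions with 2 libraries each, and all mouse material was of the C57BL/6J strain. Fibroblasts were mouse embryonic fibroblasts, and 2D-iHs were induced hepatic stem cells made from such fibroblasts with lentiviral Oct4 and Hnf4α and grown flat. 2D-iHEs were the same stem cells grown flat with induced endothelial cells, and the 3D cultures were iHLOs, liver organoids of the stem cells alone, and iHEAs, assembloids of stem cells and endothelial cells. The tissues were liver of young adult male mice and liver of mid-gestation embryos, called adult and fetal liver. All 4 culture conditions received the same assembloid medium. The endothelial cells came from a human fibroblast line transduced with ETV2, so the co-cultures mixed species, and a human read enters the table only through a match to the mouse genome. The stem cells and the endothelial cells each derive from transduced cultures, and no source used here says that the libraries of a condition came from separate cultures or animals. P-values therefore measure the spread between these libraries, which may be technical. In bulk RNA, fewer cells of a type and less RNA per cell cannot be told apart.

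Cholesterol is built from acetyl-CoA through mevalonate, isoprenoid units, squalene and lanosterol, and the liver is a main site of this synthesis. SREBP2, the product of Srebf2, is a membrane-bound transcription factor that switches on most genes of the pathway. When sterols are scarce, SCAP escorts SREBP2 to the Golgi to be cut, whereas INSIG proteins hold the pair in the endoplasmic reticulum when sterols are plentiful.

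Of the 27 genes, 23 matched a RefSeq promoter entry of GRCm38.p6, which spans 250 bases before to 50 bases after the start site. SREBP2 acts at sterol regulatory elements together with NF-Y, which binds CCAAT boxes, so promoters of 4 genes with a large or a small difference in the cultures are shown with that of Hmgcs1, in which the sterol element was found. Each line gives 150 bases before the start, 5′ to 3′ on the coding strand, with matches to TCACNCCAC or CCAAT on either strand in capitals.
Hmgcs1, chr13:119690201-119690350, plus strand: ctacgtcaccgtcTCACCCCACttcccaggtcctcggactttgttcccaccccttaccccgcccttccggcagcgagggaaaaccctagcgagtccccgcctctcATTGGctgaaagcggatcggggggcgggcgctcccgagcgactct
Idi1, chr13:8885456-8885605, plus strand: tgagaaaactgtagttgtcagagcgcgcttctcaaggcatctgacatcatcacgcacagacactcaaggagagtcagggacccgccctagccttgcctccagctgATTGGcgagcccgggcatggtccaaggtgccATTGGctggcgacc
Lss, chr10:76531455-76531604, plus strand: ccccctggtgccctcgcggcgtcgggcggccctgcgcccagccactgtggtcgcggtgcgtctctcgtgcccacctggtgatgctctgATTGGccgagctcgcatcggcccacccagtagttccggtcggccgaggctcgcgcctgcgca
Cyp51, chr5:4104698-4104847, minus strand: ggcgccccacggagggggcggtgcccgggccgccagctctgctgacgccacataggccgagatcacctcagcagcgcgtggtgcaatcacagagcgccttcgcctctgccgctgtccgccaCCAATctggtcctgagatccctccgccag
Ebp, chrX:8193513-8193662, minus strand: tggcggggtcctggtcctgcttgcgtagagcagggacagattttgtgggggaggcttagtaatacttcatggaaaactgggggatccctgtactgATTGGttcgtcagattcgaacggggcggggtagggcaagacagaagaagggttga

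Over the full 300-base promoters, CCAAT on either strand was present in 21 of the 23 genes, or 91.3%, and it was missing from Acat2 and Scap. It was present in 41.1% of all genes with a promoter entry and in 43.2% of the genes tested in the cultures. TCACNCCAC was found in Hmgcs1 only, or 4.35% of the 23 against 1.44% of all genes, where it begins 137 bases before the start site. The E-box CACGTG was present in Hsd17b7, Sc5d, Dhcr7, Scap and Insig1, or 21.7% against 8.09% of all genes and 11.6% of the genes tested in the cultures. These matches describe letters in a window. The match to TCACNCCAC overlapped no CCAAT match, and Fdps, Fdft1, Sqle and Stard4 had no entry.

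Total counts per library ran from 20851489 to 35143325. Counts were scaled by TMM, a factor that balances library composition, and levels are given as CPM, counts per 1000000 of that scaled total. The summed CPM of 8 hepatocyte marker genes was 281 to 391 in the culture libraries and 570331 and 608806 in adult liver, in which Alb alone took 22.5% and 23.6% of the counts. Of the 8 hepatocyte markers, those with at most 3 counts in every library were 2 in 2D-iHs, 6 in 2D-iHEs, 1 in iHLOs and 3 in iHEAs, and of 4 tested in 3D against 2D, 2 were higher and 0 lower, while in iHLOs against 2D-iHs and in iHEAs against 2D-iHEs 2 were higher and 1 lower. The 8 endothelial marker genes summed to 472 to 480 CPM in 2D-iHs, 412 to 424 CPM in 2D-iHEs, 1205 to 1345 CPM in iHLOs and 869 to 935 CPM in iHEAs. The added endothelial cells were human and the highest sum was in iHLOs, which had none, so these mouse genes are no measure of the added cells. At most 3 counts in every library were seen for Emcn in 2D-iHs and iHLOs, Pecam1 and Emcn in 2D-iHEs, and Kdr and Emcn in iHEAs. Fibroblast markers, at 28850 to 30360 CPM in fibroblasts, summed to at most 11.8 CPM in the cultures.

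The first comparison asks how the pathway differed between 3D and flat cultures, with 4 libraries on each side. Most of the pathway was lower in 3D. edgeR's quasi-likelihood test, with Benjamini-Hochberg adjustment over 13409 genes, called 23 of the 27 lower and 2 higher at an adjusted p under 0.05. Among all genes tested, 37.2% were called lower and 38.7% higher. The median log2 fold change was -0.88 over the 27 genes and 0.01 over all genes. At least 2-fold lower were 10 of the 27 genes, against 11.3% of all genes. In 22 genes every 3D library lay below every 2D library, against 37.2% of all genes.

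**Figure D1:**
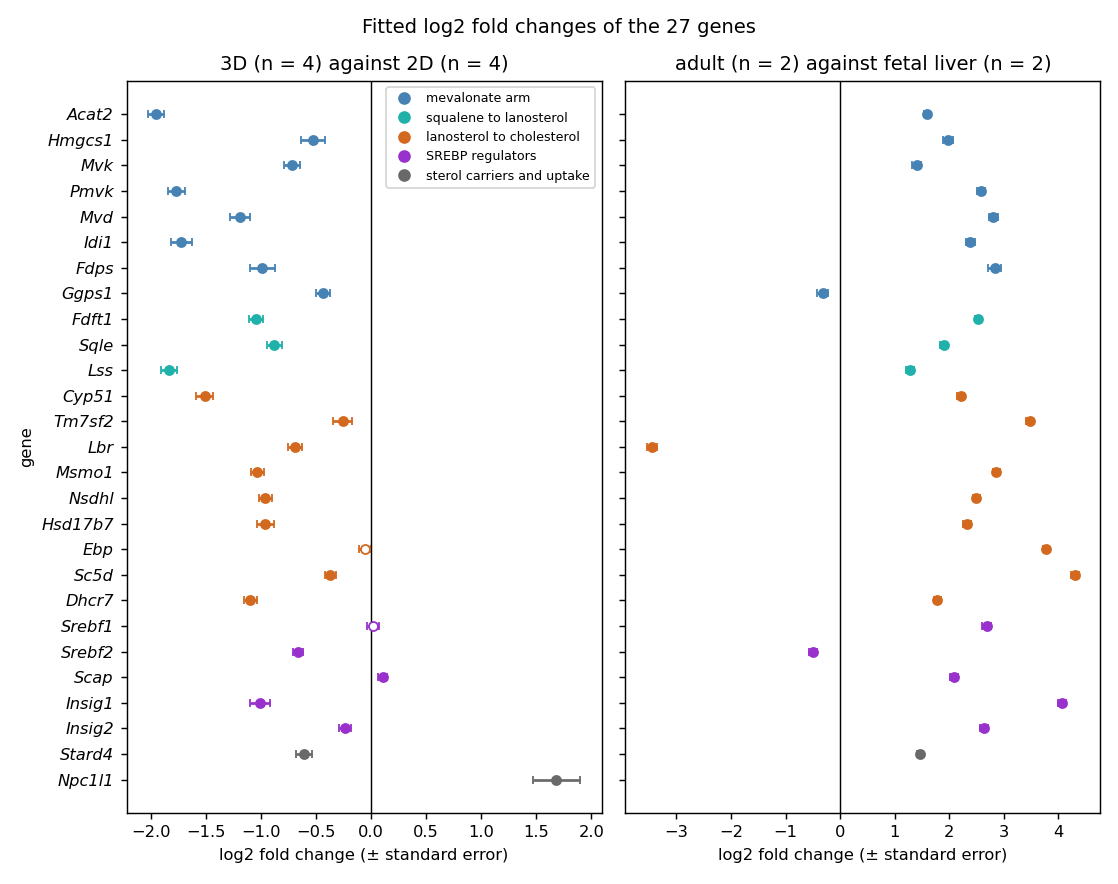
Fitted log2 fold change (horizontal axis, ± standard error) of each gene, coloured by role, in 3D against 2D cultures (left) and in adult against fetal liver (right). Filled points passed an adjusted p under 0.05 and open points did not, and Npc1l1 is left out on the right because adult liver had 0 counts. In 3D, 23 genes lay below 0 and passed, while in adult liver 23 lay above 0 and passed on the TMM scale. Of the latter, Mvk, Lss and Stard4 fall to -0.02, -0.14 and 0.04 with scaling by total counts.

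All 8 genes of the mevalonate arm fell in 3D, with a median log2 fold change of -1.09. Acat2, which joins acetyl-CoA units at the entry of the pathway, was at 77.0 and 76.7 CPM in 2D-iHs, 65.6 and 66.7 CPM in 2D-iHEs, 17.3 and 20.1 CPM in iHLOs, and 17.4 and 17.0 CPM in iHEAs. The 3D libraries lay together far below the 2D libraries. Acat2 fell by 1.95 on the log2 scale (SE 0.07, adjusted p = 6.74e-10 by edgeR), which is 3.87-fold, and it carries a caution because its transcript shares 97.7% of letters with Acat3 over 1477 bases. Pmvk, phosphomevalonate kinase, fell 3.41-fold, and Idi1, which isomerizes the isoprenoid unit, fell 3.30-fold. Idi1 read 33.1 and 34.6 CPM in 2D-iHs, 25.3 and 28.8 CPM in 2D-iHEs, 9.06 and 9.25 CPM in iHLOs, and 8.93 and 8.63 CPM in iHEAs. The flat and 3D libraries did not overlap, and the 2D-iHE libraries were the lower of the flat ones.

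Hmgcs1, which makes HMG-CoA, had the smallest decrease of the arm after Ggps1. It was at 175 and 176 CPM in 2D-iHs, 128 and 132 CPM in 2D-iHEs, 106 and 114 CPM in iHLOs, and 90.7 and 101 CPM in iHEAs. These values step down from flat stem cells through flat co-cultures to 3D without overlap between 2D and 3D. The difference of 3D from 2D was -0.53 (SE 0.11, adjusted p = 0.00102 by edgeR). Mvk, mevalonate kinase, fell by 0.72 and Mvd, the decarboxylase that follows, fell by 1.19 on the log2 scale. Fdps, which makes farnesyl diphosphate, fell by 0.99, with 26.7% of its exonic length shared with another gene on the same strand. Ggps1, which draws farnesyl units off towards protein prenylation, fell by 0.44.

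The 3 genes from farnesyl diphosphate to lanosterol fell as well. Lss, lanosterol synthase, was at 261 and 255 CPM in 2D-iHs, 214 and 217 CPM in 2D-iHEs, 61.5 and 67.7 CPM in iHLOs, and 66.7 and 61.9 CPM in iHEAs. All 4 libraries in 3D were lower than the fibroblast libraries, at 72.5 and 72.2 CPM, whereas all flat cultures were higher. Lss fell 3.57-fold in 3D (log2 -1.84, SE 0.07, adjusted p = 7.73e-10 by edgeR). Fdft1, squalene synthase, fell 2.06-fold and Sqle, squalene epoxidase, fell 1.84-fold. Fdft1 overlaps Ctsb on the opposite strand over 18.3% of its exonic length.

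Of the 9 enzymes from lanosterol to cholesterol, 8 fell and Ebp did not pass the test. Cyp51, the lanosterol demethylase, was at 201 and 189 CPM in 2D-iHs, 157 and 161 CPM in 2D-iHEs, 56.8 and 62.5 CPM in iHLOs, and 65.3 and 57.3 CPM in iHEAs. Its flat and 3D libraries were far apart, and it fell 2.85-fold (adjusted p = 1.10e-08 by edgeR). Mid-sized decreases were seen in Dhcr7, the final reductase, at 2.14-fold, and in Msmo1, Nsdhl and Hsd17b7, which remove methyl groups at the sterol C4 position, at 2.05-fold, 1.95-fold and 1.95-fold. Sc5d, a sterol desaturase, fell 1.29-fold.

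Ebp, the sterol isomerase that feeds Sc5d, stood apart from its neighbours in the pathway. It was at 63.5 and 62.0 CPM in 2D-iHs, 72.5 and 68.4 CPM in 2D-iHEs, 59.9 and 60.5 CPM in iHLOs, and 65.2 and 64.1 CPM in iHEAs. The pooled flat and 3D ranges overlapped, while within each format pair the 3D libraries lay below the flat ones. The log2 difference of 3D from 2D was -0.06 (95% interval -0.17 to 0.05, adjusted p = 0.377 by edgeR). In iHEAs against 2D-iHEs it was -0.09, not called, and -0.13 with all 14 libraries in the fit (adjusted p = 0.0373 by edgeR). Tm7sf2 and Lbr encode the sterol C14 reductase activity in 2 proteins, and both fell, by 0.26 and 0.70. The call on Tm7sf2 was lost without the second 2D-iH or the first iHLO library (adjusted p = 0.0592 and 0.0614) and with the replicate number as a block (adjusted p = 0.0607), and 12.1% of its exonic length is shared with Vps51 on the same strand.

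**Figure D2:**
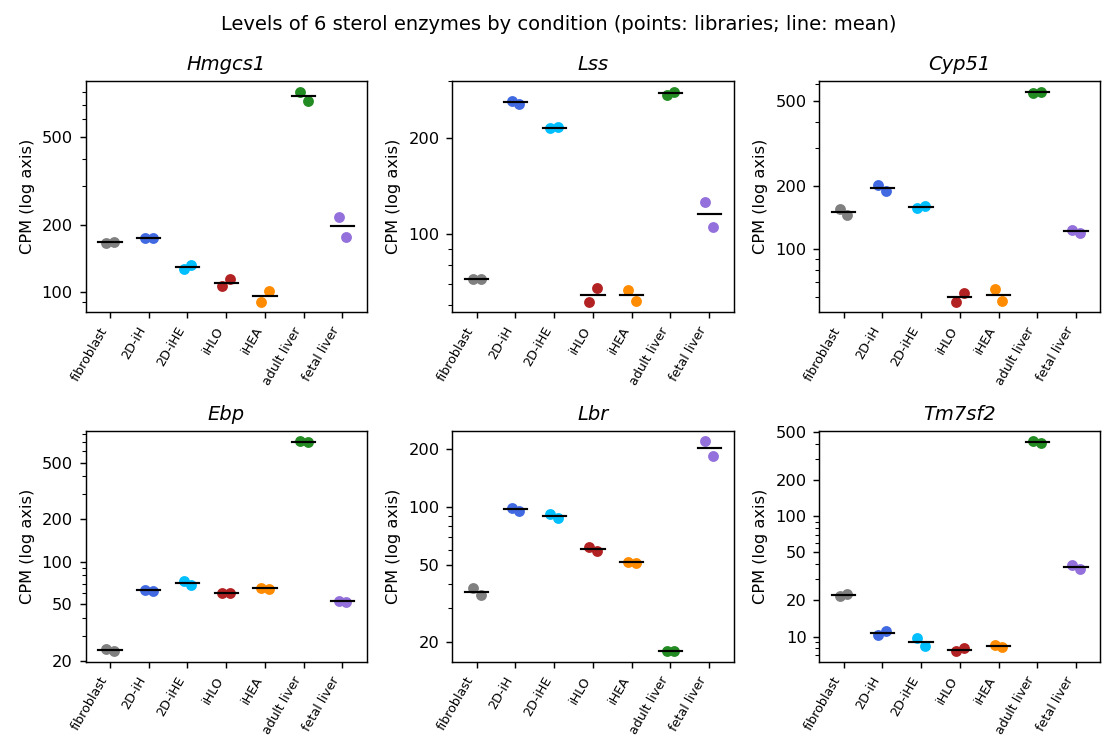
Level in CPM (vertical log axis) of 6 sterol enzymes in the 7 conditions; points are libraries and lines are means of 2. Lss and Cyp51 separate flat from 3D cultures, Ebp does not, and Lbr and Tm7sf2 go opposite ways in adult liver.

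Among the regulators, Srebf2, Insig1 and Insig2 fell, Scap rose slightly and Srebf1 did not pass the test. Srebf2 was at 298 and 318 CPM in 2D-iHs, 319 and 297 CPM in 2D-iHEs, 190 and 195 CPM in iHLOs, and 195 and 178 CPM in iHEAs. Every 3D library was below every flat library, and Srebf2 fell 1.59-fold (log2 -0.67, SE 0.04, adjusted p = 6.58e-08 by edgeR). Srebf1, whose SREBP1 product favours fatty acid genes, ran from 89.6 to 107 CPM in flat cultures and from 92.2 to 101 CPM in 3D. The ranges overlapped, and the log2 difference was 0.01 (95% interval -0.09 to 0.12). Scap differed by 0.10 (adjusted p = 0.0443 by edgeR), and that call was lost with RLE scaling (adjusted p = 0.0555), with DESeq2 (adjusted p = 0.0627), with the replicate block (adjusted p = 0.137; 0.0931 on the same libraries with no block) and without any of 6 of the 8 libraries (adjusted p from 0.0535 to 0.167).

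Insig1 is itself an SREBP target, whereas Insig2 is known for a separate control. Insig1 was at 118 and 117 CPM in 2D-iHs, 95.9 and 94.1 CPM in 2D-iHEs, 55.0 and 57.1 CPM in iHLOs, and 48.3 and 44.5 CPM in iHEAs. It stepped down in each condition and fell 2.02-fold between 2D and 3D, whereas Insig2 fell 1.18-fold. Stard4, a cytosolic sterol carrier, fell 1.53-fold. Npc1l1, the sterol uptake protein of the gut, was low throughout, with 55 and 30 counts in 2D-iHs, 40 and 21 in 2D-iHEs, 127 and 87 in iHLOs, and 143 and 82 in iHEAs. It rose 3.21-fold (adjusted p = 2.29e-05 by edgeR), and every 3D library exceeded every flat library in CPM.

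**Figure D3:**
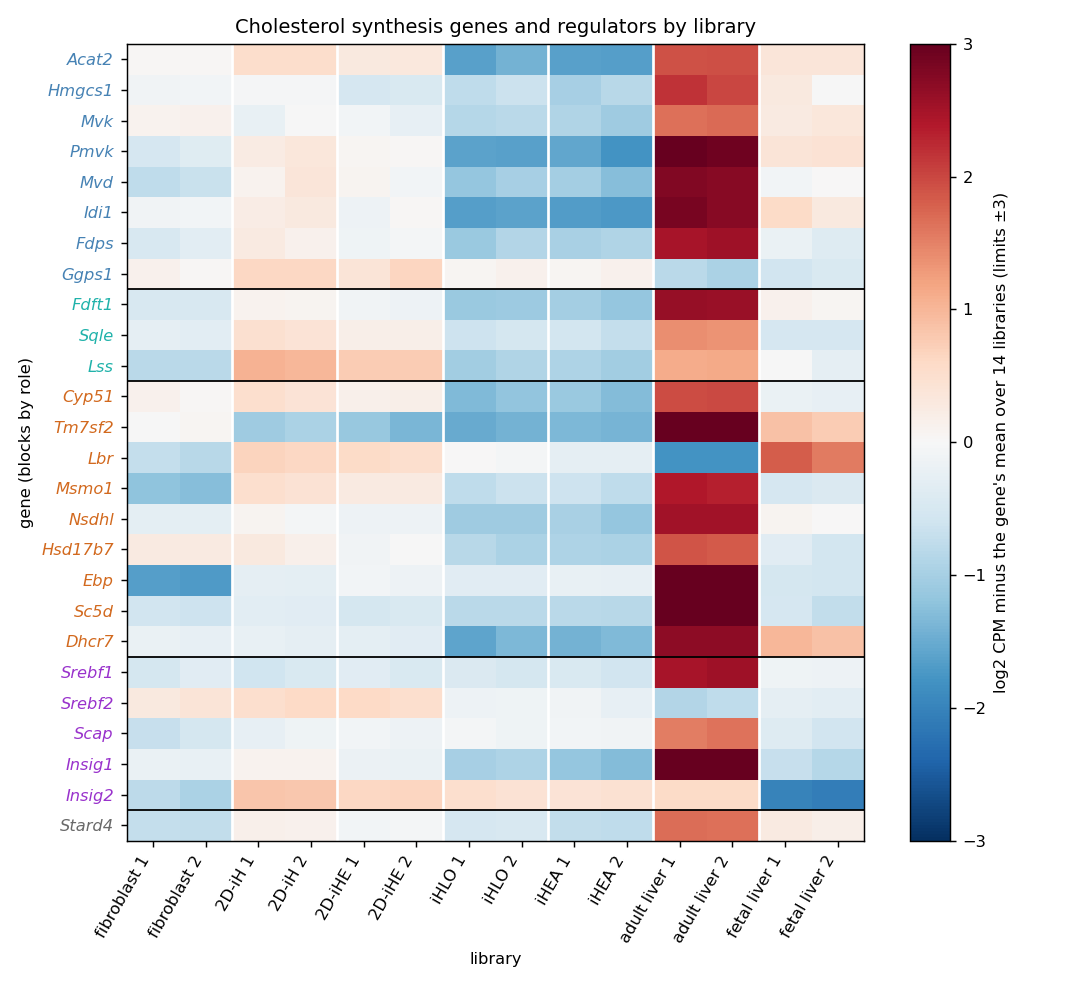
Log2 CPM of 26 genes (rows, blocks by role) in the 14 libraries (columns), each gene minus its own mean over the libraries, with colours limited at ±3; Npc1l1 is left out because adult liver had 0 counts. The 3D columns are blue for most enzymes, and adult liver is red for all but Ggps1, Lbr and Srebf2 among the rows shown.

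The 3D decrease was seen separately without and with endothelial cells, in comparisons that share no library. In iHLOs against 2D-iHs, 23 of the 27 were lower and 2, Npc1l1 and Scap, higher, against 35.3% and 36.9% of all genes. The call on Scap, at 0.15, was lost with DESeq2 (adjusted p = 0.0776) and with all 14 libraries in the edgeR fit (adjusted p = 0.214). Scap was at 0.07 without the first 2D-iH library and at 0.12 without the first iHLO library. In iHEAs against 2D-iHEs, 22 were lower and 1, Npc1l1, was higher, against 34.9% and 36% of all genes. The genes lower in both numbered 22, against 31.3% of all genes. Of the 22, Insig2 was not called in iHEAs without the first iHEA or the second 2D-iHE library (adjusted p = 0.0681 and 0.0658 by edgeR). Tm7sf2 passed in iHLOs at -0.41 but not in iHEAs at -0.11, a difference that was itself not called. Acat2, Lss, Pmvk, Idi1 and Cyp51 fell by 2.00, 1.95, 1.85, 1.84 and 1.67 in iHLOs and by 1.91, 1.71, 1.67, 1.58 and 1.34 in iHEAs on the log2 scale.

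Proliferation genes went the same way as most of the pathway in 3D against 2D. The 8 genes of this list were all lower in 3D, with a median log2 fold change of -2.44, and summed to 1313 to 1391 CPM in 2D-iHs, 1272 to 1292 CPM in 2D-iHEs, 239 to 268 CPM in iHLOs and 229 to 243 CPM in iHEAs. In 2D-iHEs against 2D-iHs, 0 of the 8 proliferation genes were called, against 8.17% of all genes, at a median log2 fold change of -0.10. There, 9 of the 27 pathway genes were lower, against 3.92% of all genes. Endothelial markers rose in 3D in 5 of 6 genes tested, also in iHLOs against 2D-iHs, which had no endothelial cells added. The part of either list in the result, here and in the comparisons below, was not tested. In 2D-iHs against fibroblasts all 8 proliferation genes were higher, with sums of 655 to 681 CPM in fibroblasts, as most of the pathway was. In adult against fetal liver all 8 were lower, with sums of 111 to 113 CPM in adult and 3593 to 3982 CPM in fetal liver, whereas most of the pathway was higher.

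**Figure D4:**
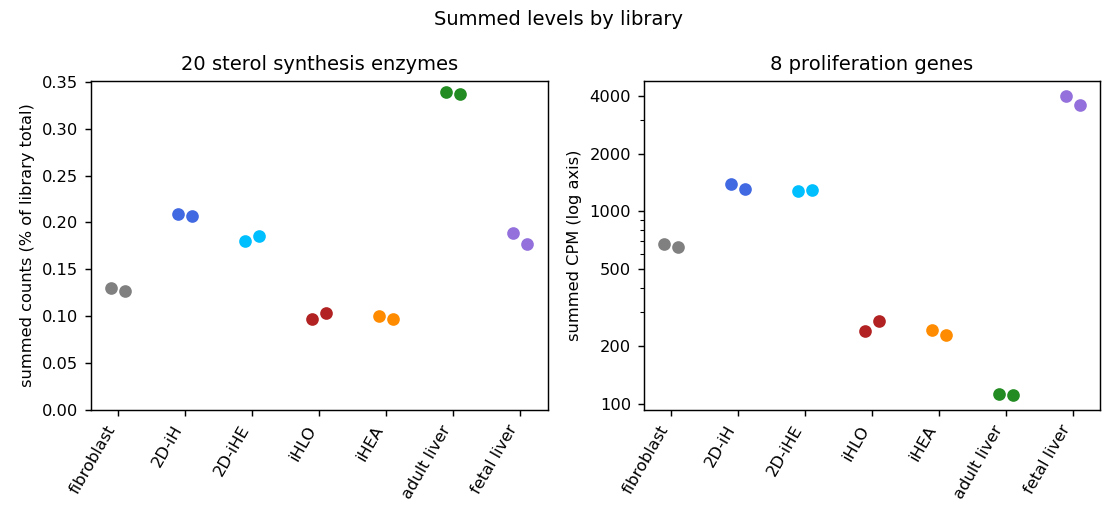
Counts of the 20 enzymes as a percent of each library's total (left, axis from 0) and summed CPM of 8 proliferation genes (right, log axis) in the 14 libraries. The enzymes take 0.0975% to 0.103% in the 3D libraries, below the 0.181% to 0.209% of the flat cultures, and 0.336% to 0.339% in adult liver, where the proliferation genes are at their lowest.

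Related lists give the surroundings of the pathway in 3D against 2D, to be read against 38.7% of all genes higher and 37.2% lower. Of 13 fatty acid synthesis and SREBP1 target genes tested, 9 fell and 3 rose, led by Fads2, a fatty acid desaturase, at -2.33 and Elovl5, an elongase, at 0.50. All 7 tested LXR targets and sterol efflux genes rose. Abcg5, a sterol exporter, had 0, 2, 0 and 1 counts in the flat libraries and 118, 91, 107 and 153 in 3D. Of 10 genes of SREBP processing and sterol-regulated degradation, 6 were higher and 2 lower. Erlin1 fell by 0.84 and Rnf145, a ubiquitin ligase of this system, rose by 0.84.

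The isoprenoid branch had 3 of 10 genes higher and 4 lower, near the share of all genes, from Pdss1, which makes the ubiquinone tail, at -0.69 to Icmt, a prenyl protein methyltransferase, at 0.46. Of 12 sterol trafficking and esterification genes, 7 rose and 1 fell. Scarb1, the HDL receptor, fell by 1.21, and Stard3, an endosomal sterol carrier, rose by 1.88.

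Co-culture with endothelial cells was compared within each format. In flat culture, 9 of the 27 genes were lower in 2D-iHEs than in 2D-iHs and 1 was higher, against 3.92% and 4.26% of all genes. In the same comparison 3 of 6 endothelial, 2 of 4 hepatocyte and 1 of 5 cholangiocyte markers tested were lower and 1 of 3 fibroblast markers was higher, and their part in the result was not tested. The decreases were small and lay from the mevalonate arm to the regulators. Hmgcs1 fell by 0.42 (SE 0.06, adjusted p = 0.00114 by edgeR), Idi1 by 0.32, Insig1 by 0.29, Cyp51 by 0.28, Hsd17b7 by 0.27, Lss by 0.25, Sqle by 0.24, Fdft1 by 0.22 and Stard4 by 0.20. Ebp rose by 0.18, a call lost with no filter, with DESeq2 and with all 14 libraries in the fit (adjusted p = 0.0687, 0.0839 and 0.0636). DESeq2 also lost the calls on Idi1 and Hsd17b7 (adjusted p = 0.0609 and 0.0716). When a library was left out, 2 of the 27 were called without either 2D-iH library, 1 without the first and 3 without the second 2D-iHE library, against 1.87% to 3.17% of all genes. The differences of the 10 genes kept their direction, with Hmgcs1, called each time, from -0.46 to -0.39, Lss from -0.27 to -0.23, Hsd17b7 from -0.33 to -0.20 and Ebp from 0.15 to 0.21. Idi1 ran from -0.42 to -0.21, the smallest without the first 2D-iHE library. In 20 of the 27 genes both 2D-iHE libraries lay below both 2D-iH libraries, against 29.7% of all genes.

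In 3D, few differences of iHEAs from iHLOs were called. The iHEA libraries differed more from each other than those of the other cultures, with a chi-square per gene of 11.5 against 3.44 to 3.67. An absent call here therefore does not show equal levels. No gene of the 27 was higher and 3 were lower, against 1.19% and 1.07% of all genes, and 4 had an unadjusted p under 0.05, against 12.7% of all genes. Of the markers tested, 3 of 6 endothelial, 1 of 4 hepatocyte and 1 of 3 fibroblast genes were lower and 2 of 5 cholangiocyte genes higher. The part of these markers in the result was not tested. Insig1 was at 55.0 and 57.1 CPM in iHLOs and 48.3 and 44.5 CPM in iHEAs, a log2 difference of -0.27 (adjusted p = 0.0239 by edgeR). Stard4 differed by -0.25 (adjusted p = 0.0226) and Lbr by -0.23 (adjusted p = 0.0382) in the same edgeR fit. None of the 3 was called when either iHLO library was left out, which leaves 1 iHLO library, and fewer of all genes were called as well. The differences stayed at -0.29 and -0.24 for Insig1, -0.27 and -0.24 for Stard4, and -0.19 and -0.26 for Lbr. The call on Insig1 was also lost without the second iHEA library (adjusted p = 0.0507 by edgeR), and that on Lbr with all 14 libraries in the fit (adjusted p = 0.177) and with total counts (adjusted p = 0.0545). For Lss the interval of the iHEA to iHLO difference was -0.11 to 0.11, for Fdft1 -0.10 to 0.11 and for Cyp51 -0.09 to 0.18 on the log2 scale.

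The co-culture difference was then compared between the formats. The edgeR test of 3D minus 2D called 0 of the 27, against 3.14% of all genes in either direction, while 6 had an unadjusted p under 0.05, against 15.2% of all genes, and DESeq2 called 1, against 3.35%. Those 6 were Cyp51, Fdft1, Hmgcs1, Lss, Msmo1 and Sqle, with log2 differences from 0.18 to 0.32. Without the second iHEA library 5 of the 27 were called, against 5.89% of all genes, and without the first 1 was called, against 7.17%.

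The cultures were set beside the cells they were made from. In 2D-iHs against fibroblasts, 21 of the 27 genes were higher and 2 lower, against 45.7% and 38.2% of 14121 genes tested. With a filter of at least 5 in place of 3, 16 of 26 were higher and 5 lower, against 43.3% and 42.6% of all genes, with Hsd17b7, Dhcr7 and Srebf1 then called lower (adjusted p = 0.00798, 0.0125 and 0.00370 by edgeR) and Idi1, Nsdhl, Sc5d and Srebf2 no longer called higher (adjusted p = 0.0657, 0.0535, 0.143 and 0.605). Srebf1 was also called lower with RLE scaling, with DESeq2 and with edgeR on the 4 libraries of the comparison (adjusted p = 0.0283, 0.0182 and 0.00473). The higher call on Srebf2 was lost with RLE scaling and DESeq2 (adjusted p = 0.115 and 0.109). Without the first fibroblast library Srebf1 was at -0.21 and Srebf2 at 0.14, and without the second 2D-iH library Srebf2 was at 0.16, against -0.10 and 0.20 in the main fit. Lss was at 72.5 and 72.2 CPM in fibroblasts and 261 and 255 CPM in 2D-iHs, a 3.55-fold difference. Msmo1 was 3.27-fold, Insig2 3.18-fold, Lbr 2.64-fold and Ebp 2.63-fold higher. Tm7sf2 was 2.07-fold and Mvk 1.18-fold lower. Mvk was not called with no filter (log2 -0.17, adjusted p = 0.0624 by edgeR) or without the first 2D-iH library (log2 -0.12). Summed over the 20 enzymes, fibroblasts had 1158 ± 14.5 CPM (SD, n = 2), 2D-iHs 1862 ± 27.9 CPM, 2D-iHEs 1594 ± 6.19 CPM, iHLOs 857 ± 31.0 CPM and iHEAs 832 ± 27.3 CPM. The 3D cultures thus held less than fibroblasts, without overlap.

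In the tissues, adult liver stood above fetal liver over nearly the whole pathway. On the TMM scale, 23 of the 27 genes were higher and 4 lower, against 40% and 43.8% of all genes. All 23 were at least 2-fold higher on that scale, as were 25.3% of all genes. Marker lists moved as well: all 8 hepatocyte genes were higher in adult liver (median log2 fold change 4.83), while all 4 erythroid genes tested were lower, with sums of 272 to 299 CPM against 16500 to 16650 CPM in fetal liver, and 5 of 6 fibroblast genes were lower. Their part in the result was not tested. Scaling mattered here, because adult liver had TMM factors of 0.43 and 0.44. With scaling by total counts the median of all genes moved from -0.10 to -1.52, and the share of higher genes among all calls from 47.7% to 17.7%. Of the 27 genes, 20 were then called higher and 4 lower, against 2282 and 10630 of 14121 genes. Mvk and Lss then turned to -0.02 and -0.14 and Stard4 fell to 0.04, none of them called, although all still lie above that median. By total counts the 20 enzymes took 0.336% and 0.339% in adult liver, against 0.177% and 0.189% in fetal liver.

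Sc5d showed the steepest of the enzyme differences between the livers, at 1379 and 1347 CPM in adult liver and 76.4 and 64.7 CPM in fetal liver, or 19.7-fold. Ebp was 13.6-fold higher, from 52.7 and 52.2 CPM in fetal liver to 708 and 694 CPM in adult liver. Insig1 was at 1061 and 1026 CPM against 67.1 and 60.1 CPM, a 16.7-fold difference. Hmgcs1 was 3.93-fold and Lss 2.43-fold higher. These fold sizes are on the TMM scale, and scaling by total counts makes them smaller. On the TMM scale both adult libraries exceeded both fetal ones in these 5 genes, whereas by total counts both adult libraries lay below both fetal ones for Lss.

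Lbr, Srebf2, Ggps1 and Npc1l1 went the other way. Lbr was at 18.0 and 18.1 CPM in adult liver and 219 and 183 CPM in fetal liver, 10.9-fold lower in the adult (adjusted p = 6.03e-15 by edgeR). Srebf2 differed by -0.50 and Ggps1 by -0.32, the latter not called with RLE scaling, with DESeq2 or without the second adult library (adjusted p = 0.0814, 0.107 and 0.211). Npc1l1 had 0 counts in both adult libraries and 28 and 25 in fetal liver. Against a floor of 3 counts per library it was at least 4.14-fold higher in fetal liver and at least 15.7-fold higher in iHLOs than in adult liver.

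The organoids were set beside adult liver as their target tissue. In iHLOs 23 of the 27 genes were lower than in adult liver and 4 higher, against 39.2% and 45.7% of all genes. On the TMM scale, Tm7sf2 was 54.4-fold, Pmvk 24.5-fold, Sc5d 22.7-fold, Idi1 22.1-fold, Insig1 19.2-fold and Dhcr7 18.3-fold lower. Higher were Lbr at 3.27-fold, Ggps1 at 1.89-fold, Srebf2 at 1.56-fold and Npc1l1. The TMM factors were 0.43 and 0.44 in adult liver and 1.17 in both iHLO libraries, so scaling by total counts makes the decreases smaller. By total counts the 20 enzymes took 0.0975% and 0.103% in iHLOs, against 0.339% and 0.336% in adult liver. Insig2, at -0.15, was not called without the second iHLO library (-0.10) or with no filter (-0.016, adjusted p = 0.963 by edgeR). With scaling by total counts it turned to 1.29, where the median of all genes was 1.56. Of the 27 genes, 22 were then lower and 5 higher, against 2588 and 10457 of 14121 genes. The share of higher genes among all calls moved from 53.9% to 80.2%.

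Across the 7 conditions adult liver had the highest level in 22 of the 27 genes on the TMM scale and in 19 by share of total counts, where Lss and Sqle were highest in 2D-iHs and Mvk in fetal liver. The lowest was iHEA in 12 and iHLO in 6, and these neighbours differed by the test only for Insig1, Lbr and Stard4. As a description over 7 conditions, which share libraries and scaling, the Pearson correlation of log2 level with the median of the other enzymes ran from 0.76 for Lss to 1.00 for Fdft1 among 18 enzymes. Ggps1 and Lbr had -0.61 and -0.49, and Srebf2 had -0.49.

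Levels of different genes were compared per kilobase of exonic length. In adult liver Insig1 led with 337 CPM per kb, before Ebp with 304 and Sc5d with 280. In iHLOs Srebf2 led with 26.7 CPM per kb, before Ebp with 26.1 and Hmgcs1 with 24.0. In fetal liver Hmgcs1 led with 43.1 and Lbr followed with 42.2, while Lbr was among the last in adult liver with 3.79.

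Ratios of 3 gene pairs within a library do not depend on library scaling. The log2 ratio of Insig1 to Insig2 per kb was 0.32 ± 0.08 (SD, n = 4) in flat cultures, -0.45 ± 0.16 (n = 4) in 3D and 3.78 ± 0.03 (n = 2) in adult liver. That of Srebf1 to Srebf2 was -1.30 ± 0.08 in flat cultures, -0.61 ± 0.05 in 3D and 3.05 ± 0.04 in adult liver. Srebf2 was thus the more abundant in every culture library, and Srebf1 was 8.28-fold the more abundant in adult liver.

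For Tm7sf2 to Lbr, the pair with C14 reductase activity, the log2 ratio was -3.14 ± 0.12 in flat cultures, -2.69 ± 0.20 in 3D, -2.29 ± 0.10 in fetal liver and 4.63 ± 0.03 in adult liver. Lbr prevailed in fibroblasts, cultures and fetal liver, and Tm7sf2 prevailed 24.7-fold in adult liver. An exact permutation test of 4 against 4 culture libraries, two-sided, gave p = 0.0286 for each of the 3 pairs, the smallest it allows, and 0.0286 after Benjamini-Hochberg adjustment over 3 pairs. It pools the conditions of a format, and the genes of each pair were already tested on the same libraries, so it adds no independent support.

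**Figure D5:**
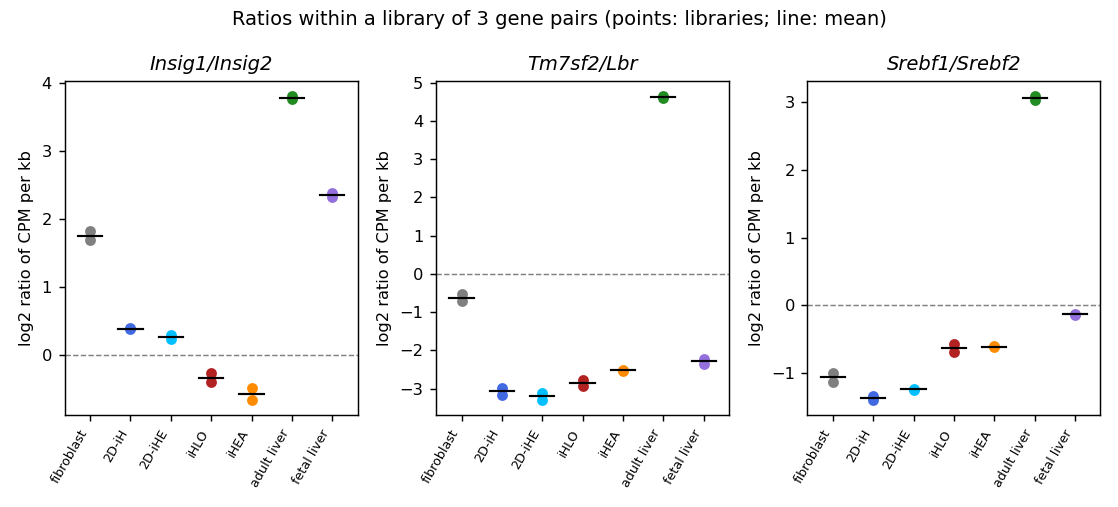
Log2 ratio within a library of CPM per kb for 3 gene pairs (vertical axis) in the 7 conditions; points are libraries, lines are means of 2 and the dashed line marks equal levels. The pairs Srebf1 to Srebf2 and Tm7sf2 to Lbr lie above the dashed line in adult liver only, and Insig1 to Insig2 crosses below it in 3D only.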

How the data were processed

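Per the study's methods, RNA-seq reads were aligned to GRCm38 with HISAT2, annotated with Cufflinks and counted per gene with HTSeq, and the submitters' processing notes also name Trimmomatic 0.36; the other versions, the strand setting and the rule for ambiguous reads are not given in the sources used here. The authors deposited the values as raw counts, 1 column per library, with totals of 20851489 to 35143325. The name of the second iHEA column holds conflicting numbers; it entered every fit by its condition alone.

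The members and lists were chosen with earlier results of these data known. Counts were tested with edgeR 4.0.16 (R 4.3.3): TMM, a filter on genes (mean log2(count + 1) under 3 removed), quasi-likelihood F test, Benjamini-Hochberg over all genes tested. Culture comparisons used the 8 culture libraries and the others all 14. Standard errors are the log2 fold change over the square root of F. The 95% intervals assume a normal spread, so they are somewhat narrower than the F test would give. The fits were checked on simulated data. Every member is named, and of each related list the largest called increase and decrease in 3D against 2D. Exonic lengths and positions came from GENCODE M21 for 27619 genes with 1 position, and promoters from RefSeq. RLE, DESeq2 1.42.0, other filters, total-count scaling, a replicate block and left-out libraries were tried, total-count scaling after seeing the data. The chi-square per gene between libraries of a condition was 11.5 in iHEAs, 13.4 in fetal liver and 3.05 to 3.67 in the other conditions. Each library was kept.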

Additional observations from a re-analysis of the deposited data

Results flagged for a closer look

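Among the 4 libraries in 3D, the second iHLO library stood apart for Acat2 at 20.1 CPM, above the others at 17.0 to 17.4 CPM. Among the 4 flat libraries, the first 2D-iHE library stood apart for Ggps1 at 40.4 CPM, below the others at 47.3 to 48.0 CPM. In each case the gap to the nearest library was above Dixon's 95% critical value for 4 values. These are 2 of 54 groups examined, and chance flags about 1 in 20 groups.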

How the results depend on the processing

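With 2 libraries a condition, many but not all calls on small differences were lost when a library was left out. The differences themselves kept their direction for the members called in 2D-iHE against 2D-iH and iHEA against iHLO. The count of called members was within 1.5 times the reported one under every alternative run for the 3 comparisons of 3D with flat culture and the 3 with fibroblasts or tissues. It was not for iHEA against iHLO, with 0 to 3 on leaving out a library, nor for 2D-iHE against 2D-iH, with 1 to 3, nor for the co-culture difference between formats, with 1 with no filter, 1 with DESeq2 and 0 to 5 on leaving out a library. With no filter, the 1 member called for the co-culture difference between formats stands against 4.32% of all genes in either direction. The cause of these changes in the count of called members was not tested beyond the smaller number of libraries. Directions were examined for all members, but only for those called in iHEA against iHLO and 2D-iHE against 2D-iH, and not for the co-culture difference between formats. Those that turned, none of them called in the setting that turned it except Insig2, were Srebf1 in 3D against 2D without the first 2D-iH library (-0.043, range over left-out libraries to 0.046), Ebp in iHLO against 2D-iH with no filter (0.0053) or total counts (0.0060), Tm7sf2 in iHEA against 2D-iHE without the first 2D-iHE library (0.011, range from -0.20), Mvk and Lss in adult against fetal liver with total counts (-0.024 and -0.14), and Insig2 in iHLO against adult liver with total counts (1.29). In 2D-iH against fibroblasts, Hmgcs1 turned with RLE (-0.033), a filter of at least 5 (-0.11), DESeq2 (-0.033) and the 4 libraries alone (-0.0073), Hsd17b7 with no filter (0.012) and without the second 2D-iH library (0.019, range from -0.12), and Dhcr7 with no filter (0.036). Total counts moved the share of higher genes among calls in 2D-iHE against 2D-iH from 52.1% to 64.6%. With the replicate number as a block, 23 members were called in 3D against 2D (69.5% of all genes; 24 and 71.9% without the block on the same libraries), 25 in iHLO against 2D-iH (74.6%), 15 in 2D-iHE against 2D-iH (14.6%; 15 and 15.2% without), 23 in 2D-iH against fibroblasts (83.8%) and 27 in each of the tissue comparisons (84.1% and 84.9%). Equal numbers correlated from -0.17 to 0.17 between conditions, so the libraries share only a number. No block was possible for iHEAs, whose second library has no number.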
